A study of Mus musculus with 12 samples.

Results

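MicroRNA miR-378 was followed through its 2 arms in the epididymal fat, a visceral fat depot, of male C57BL/6J mice. The 2 assays share the name mmu-miR-378 in the deposited tables and were told apart as the 5p and the 3p arm by their miRBase accessions, and they are 2 of the 504 microRNA assays measured. The microRNA was selected on the values of its 3p arm after a lifelong high-fat diet, a log2 difference of 1.48 from the control diet, so the values of that group are a description and carry no test. The high-fat diet held 45% of its energy as fat and the control diet 10%. Group UT met the high-fat diet in utero through the dam, group UL from mating to weaning, group WL from mating to the end at 23 weeks, and group CD was given the control diet. The labels name no high-fat period for UT or UL outside those windows, and all animals were wild type. Each group was measured as 3 pooled samples made from 12 mice, so a value belongs to a pool and not to an animal. The whole diet groups were larger than the set of mice pooled. They held 27 mice from 17 litters in UT, 25 from 19 in UL, 23 from 21 in WL and 22 from 17 in CD. The labels do not say which litters entered a pool.

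A microRNA hairpin is cut into a 5p and a 3p strand, and either can be loaded into the silencing complex, where bases 2 to 8, the seed, select target messenger RNAs. In the RefSeq gene table (GRCm38.p6) the hairpin gene Mir378a lies on chromosome 18 inside the span of Ppargc1b, which encodes PGC-1β, a coactivator of mitochondrial and lipid metabolism genes. In mice, the 3p strand is known to repress carnitine O-acetyltransferase (Crat) and the 5p strand the Mediator subunit Med13, and mice that lack the hairpin resist weight gain on a high-fat diet. The same table lists relatives Mir378b on chromosome 11, Mir378c on chromosome 14 and Mir378d on chromosome 10. No source used here says whether the 3p assay distinguishes their products from that of Mir378a.

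All values come from quantitative RT-PCR, in which a lower threshold cycle (Ct) stands for more template. Both arms were measured in 12 of 12 pools at moderate cycles, from Ct 22.52 to 24.06 for the 5p arm and from Ct 23.6 to 25.36 for the 3p arm. The relative level used below is a pool's mean Ct over the 466 microRNAs with a value in all pools minus the Ct of the assay. It is on a log2 scale, so a difference of 1 stands for a 2-fold difference if the product doubles in each cycle. Averaged over the 12 pools, the 5p arm stood at 1.49, rank 171 of 504, and the 3p arm at 0.34, rank 228. These ranks compare assays whose efficiencies were not measured here. Between 492 and 506 assays gave a value per pool, and the median Ct of the microRNAs ranged from 24.62 to 25.29.

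The mature sequences of 3 of the 5 microRNAs whose pattern over the pools was most like that of the 3p arm are shown here, as RefSeq lists them for GRCm38.p6, because the results below turn on how closely these assays moved together. Sequences are written 5′ to 3′ with the seed in capitals.
miR-484, chr16:14159630-14159651, plus strand: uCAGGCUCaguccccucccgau
miR-485-3p, chr12:109734946-109734967, plus strand: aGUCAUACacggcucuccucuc
miR-804, chr11:50357799-50357820, minus strand: uGUGAGUUguuccucaccugga
Their seeds differ from one another. The remaining most similar assays, miR-483 and miR-486, are named only.

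The 3p arm had its highest levels in the group fed a high-fat diet for life and its lowest on the control diet. It stood at 0.73, 0.58 and -0.11 in UT, at 0.94, -0.18 and 0.02 in UL, and at 1.30, 0.85 and 1.14 in WL, against -0.23, -0.57 and -0.35 in CD. Every high-fat pool lay above every CD pool, by a narrow margin for UT 3 and UL 2, while the WL pools overlapped those of UL and lay above those of UT. With pools scaled to the mean of all measured microRNAs in place of the complete ones, 8 of the 9 high-fat pools lay above every CD pool. The means were 0.40 ± 0.45 in UT, 0.26 ± 0.60 in UL and 1.10 ± 0.22 in WL, against -0.38 ± 0.17 in CD (SD, n = 3 each). In bulk fat, a change in the number of cells of a type and a change in RNA per cell cannot be told apart.

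**Figure D1:**
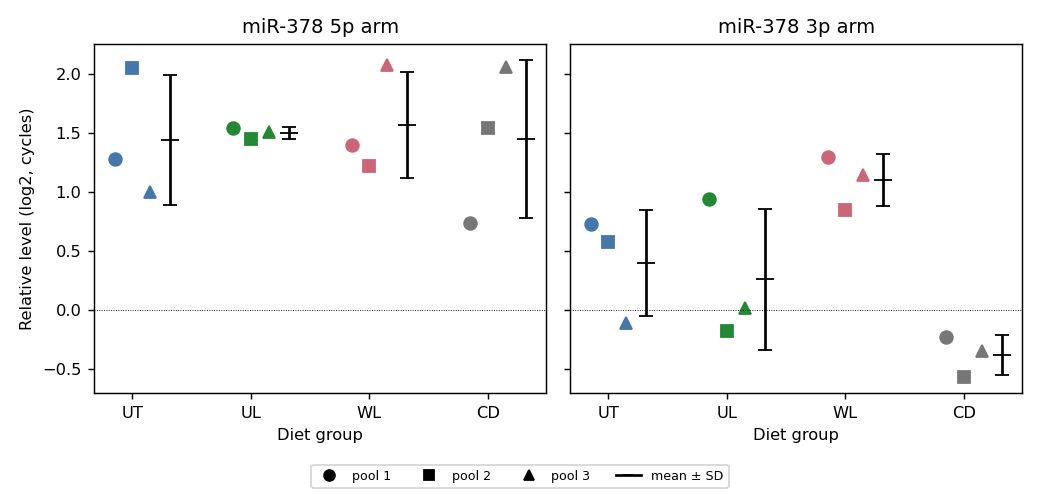
Relative level (log2, cycles) of the 5p arm and of the 3p arm of miR-378 in each pool, by diet group, with the group mean ± SD beside the pools (n = 3). The 3p values of CD, -0.57 to -0.23, lie below those of the 9 high-fat pools, whereas the 5p values of the 4 groups overlap.

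The background for such a separation was taken from all microRNAs measured in the pools compared. Every UT pool lay above every CD pool in 7.08% of 480 microRNAs, every UL pool in 3.64% of 495 and every WL pool in 5.82% of 481. Every WL pool lay above every UT pool in 9.98% of 471 microRNAs. Of the 466 microRNAs complete in all pools, 7, or 1.5%, had all 9 high-fat pools above every CD pool: miR-378 3p, miR-291b-3p, miR-302b-5p, miR-351-3p, miR-483, miR-484 and miR-486. Since miR-378 was chosen for its 3p values, its place among them is a description. The 3 comparisons also share the same 3 control pools.

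Neither arm passed the test against the control diet after in utero exposure or exposure up to weaning. The CD pools were part of the 3p difference on which the microRNA was chosen. The 3p comparisons of UT and UL with CD, with their p-values and intervals, are therefore not free of that choice. The test was limma on the 4 groups together, its p-values adjusted by the Benjamini-Hochberg method across 504 microRNAs, and it measures only the spread between these pools. For the 3p arm the log2 difference was 0.78 in UT minus CD (SE 0.36, 95% interval 0 to 1.57, limma adjusted p = 0.489), 1.72-fold, where 1.39% of all microRNAs passed the adjusted threshold of 0.05. In UL minus CD it was 0.65 (SE 0.36, 95% interval -0.14 to 1.43, limma adjusted p = 0.995), 1.56-fold, where 0.595% passed. The addition of lactation to in utero exposure was set apart by UL minus UT, for which the 3p arm had -0.14 (SE 0.36, 95% interval -0.93 to 0.65, limma adjusted p = 0.979). In that comparison limma called 0 of 504 microRNAs (0%), and 7.94% had an unadjusted p under 0.05. The intervals against CD reach past a 2-fold difference in both groups, so with 3 pools the tests leave room for differences of that size.

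For WL, whose 3p values were known when the microRNA was chosen, the log2 difference of the 3p arm was 1.48 against CD (SE 0.36), 2.79-fold. It was 0.69 against UT (SE 0.36) and 0.83 against UL (SE 0.36). In order of level the groups ran WL, UT, UL and CD. UT and UL, neighbours in that order, differed by less than the pooled SD within groups of 0.40. WL and UT were 0.69 apart and UL and CD 0.65 apart, and the second of these did not pass its test.

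The 5p arm, cut from the same hairpin, had similar means in the 4 groups. Its level was 1.28, 2.05 and 1.00 in UT, 1.54, 1.45 and 1.51 in UL, and 1.40, 1.22 and 2.08 in WL, against 0.74, 1.54 and 2.06 in CD. The groups overlapped, CD 1 was the lowest pool and WL 3 the highest, and the 3 UL pools lay closer together than those of any other group. The means were 1.44 ± 0.55 in UT, 1.50 ± 0.05 in UL and 1.57 ± 0.45 in WL, against 1.45 ± 0.67 in CD (SD, n = 3 each). The log2 difference was 0 in UT minus CD (SE 0.41, 95% interval -0.89 to 0.89, limma adjusted p = 1) and 0.06 in UL minus CD (SE 0.41, 95% interval -0.84 to 0.95, limma adjusted p = 0.995). It was 0.06 in UL minus UT (SE 0.41, limma adjusted p = 0.988), and in WL it was 0.12 against CD (SE 0.41), 1.09-fold. These intervals still allow differences of up to nearly 2-fold in either direction.

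The difference between the arms within a pool is free of any factor common to all assays of that pool. The 3p arm lay below the 5p arm in 12 of 12 pools, by -0.55, -1.47 and -1.11 in UT, -0.60, -1.63 and -1.49 in UL, and -0.10, -0.37 and -0.94 in WL, against -0.97, -2.11 and -2.41 in CD. The arms were therefore closest in WL 1 and furthest apart in CD 3, and CD 1 lay among the high-fat pools. The mean arm difference was -1.04 ± 0.46 in UT, -1.24 ± 0.56 in UL and -0.47 ± 0.43 in WL, against -1.83 ± 0.76 in CD (SD, n = 3 each). It was 0.79 higher in UT than in CD (exact permutation test, two-sided, p = 0.3) and 0.59 higher in UL than in CD (exact permutation test, two-sided, p = 0.4). UL minus UT gave -0.20 (exact permutation test, two-sided, p = 0.5). Adjusted over these 3 tests by the Benjamini-Hochberg method, every p was 0.5, and with 3 pools against 3 the smallest p such a test can give is 0.1. WL was 1.36 higher than CD, as a description, and every comparison with CD reuses the CD pools that entered the choice of the microRNA. With the 5, 2 or 10 neighbouring assays on each side subtracted, a setting described below, the arm difference was 0.16, -0.28 and 0.32 in UT minus CD and -0.16, -0.15 and -0.05 in UL minus CD, so its direction did not hold under every setting.

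**Figure D2:**
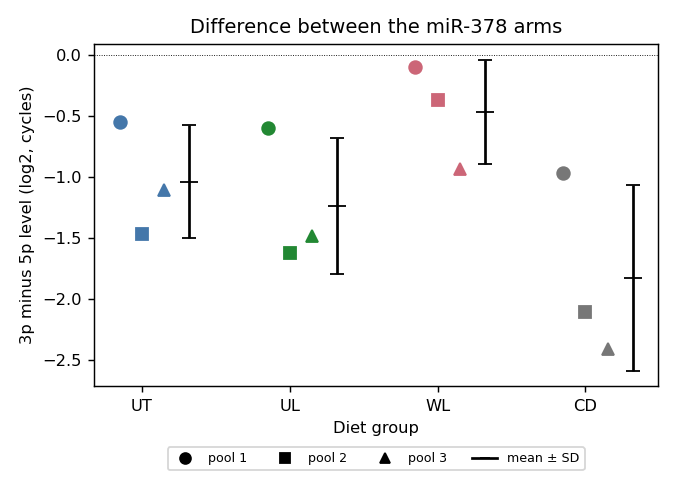
Level of the 3p arm minus level of the 5p arm (log2, cycles) in each pool, by diet group, with the group mean ± SD (n = 3). All values are below 0, from -2.41 in CD 3 to -0.10 in WL 1, and CD 1 at -0.97 lies within the range of the high-fat pools.

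Across the 12 pools the arms of miR-378 followed each other weakly, with a Pearson r of 0.19, and r was again 0.19 after the group means were removed. Among the 107 hairpins with 2 assays complete in all pools, the median r between the arms was 0.09 (quartiles -0.18 and 0.40), and 61 hairpins had a lower r than miR-378. The SD of its arm difference over the pools was 0.70, against a median of 0.78 over these hairpins (quartiles 0.60 and 1.14). Both measures of miR-378 thus lay between the quartiles of these hairpins. These correlations describe assays that share the same RNA pools.

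The assay most like the 3p arm over the 12 pools was miR-484 (Pearson r = 0.94 among 465 microRNAs ranked), followed by miR-483, which lies in the growth factor gene Igf2 (r = 0.85), miR-485-3p (r = 0.76), miR-486, abundant in red blood cells and muscle (r = 0.75), and miR-804 (r = 0.70). The level of the 3p arm minus that of miR-484 stayed between -2.49 and -1.78 in all pools (SD 0.24), against a range of -0.57 to 1.30 for the 3p arm itself. After removal of the group means r was 0.79 for miR-484, 0.65 for miR-483, 0.39 for miR-485-3p, 0.37 for miR-486 and 0.73 for miR-804. The least alike were miR-340-3p (r = -0.90) and miR-199a-5p (r = -0.77). The 5p arm ranked 143 of 465.

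**Figure D3:**
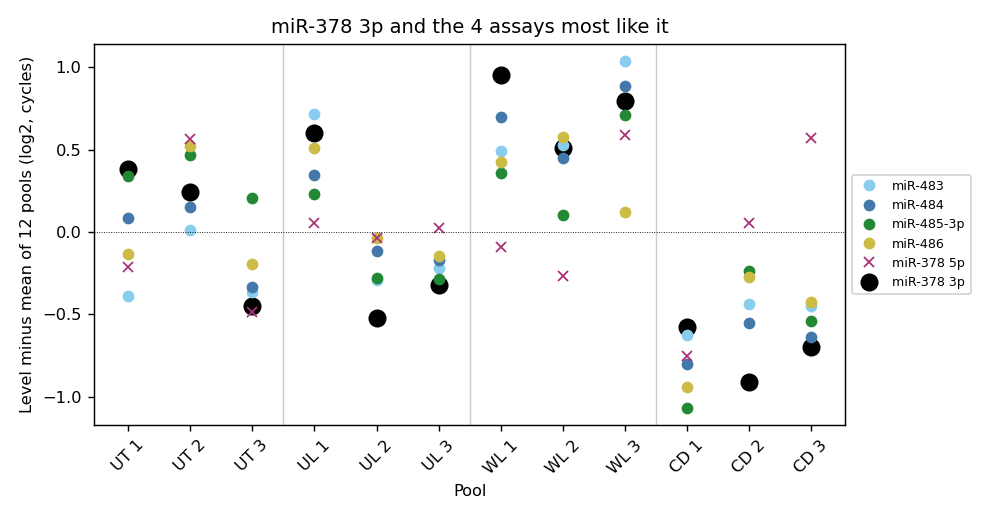
Level minus the mean of the 12 pools (log2, cycles) for the 3p arm of miR-378 (black), the 4 assays most like it and the 5p arm (crosses), by pool. The 3p arm, miR-483, miR-484 and miR-486 lie low in the 3 CD pools and high in the 3 WL pools and in UL 1, and the 5p arm does not follow them.

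The 4 most similar assays all stand within 5 places of the 3p arm in the order of miRBase accession numbers. Of the 496 microRNAs with such a number, miR-483 stands at place 227, miR-484 at 228, miR-485-3p at 230, miR-486 at 231 and the 3p arm of miR-378 at 232. MiR-485-5p, at place 229, had r = 0.44 with the 3p arm, and miR-546, at place 233, had 0.62. MiR-378 3p, miR-483, miR-484 and miR-486 make up 4 of the 7 microRNAs with all high-fat pools above every CD pool. The 5p arm stands at place 191, 41 places away.

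In WL minus CD, the differences of group means were 1.19 for miR-483, 1.34 for miR-484, 1.98 for miR-485-5p, 1.00 for miR-485-3p and 0.92 for miR-486, beside 1.48 for the 3p arm of miR-378. In UT minus CD they were 0.26, 0.63, 0.45, 0.95 and 0.61 in the same order, beside 0.78, and in UL minus CD 0.57, 0.68, 0.38, 0.50 and 0.65, beside 0.65. These 5 assays, all standing before the 3p arm, thus lay above 0 in each comparison. On the other side, miR-546 and miR-540 also lay above 0 in each. MiR-543, miR-539 and miR-541, which follow them, had r of -0.13, -0.32 and -0.21 with the 3p arm. Against CD they had -0.19, -1.20 and -0.07 in UT, 0.76, 0.97 and 0.42 in UL, and 0.08, -0.51 and -0.23 in WL. Some of these signs change with single pools left out, and miR-541 in WL minus CD was 1.57 without CD 1 and -1.92 without CD 2. The group means of these 3 assays were low, -2.68 to -1.73 for miR-543, -4.9 to -2.72 for miR-539 and -8.36 to -7.71 for miR-541. Those of miR-485-5p, on the other side, were -2.7 to -0.72. The value of miR-485-5p in WL rests on WL 3, at 2.48, with WL 1 and WL 2 at -2.29 and -2.35, and is 0.38 without WL 3.

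**Figure D4:**
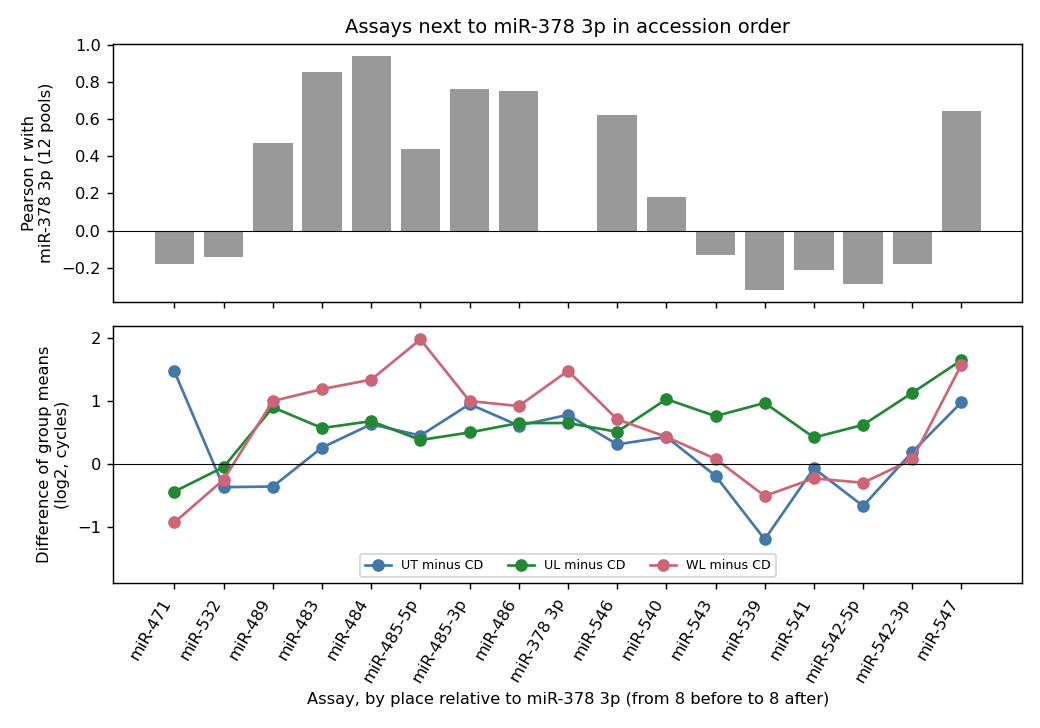
Assays from 8 places before to 8 places after the 3p arm of miR-378 in accession order: Pearson r with the 3p arm over 12 pools (top, none drawn for the 3p arm itself) and difference of group means from CD (log2, cycles, bottom). From miR-483 to miR-546 every r is 0.44 or more and all differences are above 0.

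Such likeness between neighbours ran through the whole table. The median r was 0.49 over the 437 pairs of assays 1 place apart, 0.34 over the 1704 pairs 2 to 5 places apart and -0.01 over the 94273 pairs over 25 places apart. For the 3p arm itself, the median r was -0.07 over the 45 complete microRNAs within 25 places and -0.03 over the 412 farther away. No source used here gives the position of assays on the PCR plates, and the part of assay position in the 3p values was not tested. When the median deviation of the 5 nearest assays on each side, leaving out both arms of miR-378, was subtracted from every assay, the log2 difference of the 3p arm was 0.45 in UT minus CD (SE 0.29, limma adjusted p = 0.585) and 0.09 in UL minus CD (SE 0.29, limma adjusted p = 0.996). In WL minus CD it was 0.60 (SE 0.29), and 6 of the 9 high-fat pools, the 3 WL pools among them, then lay above every CD pool. With 2 neighbours on each side WL minus CD gave 0.69 (SE 0.31) with 2 high-fat pools above every CD pool, and with 10 it gave 1.08 (SE 0.33) with 6. These 2 widths were chosen after seeing the data.

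**Figure D5:**
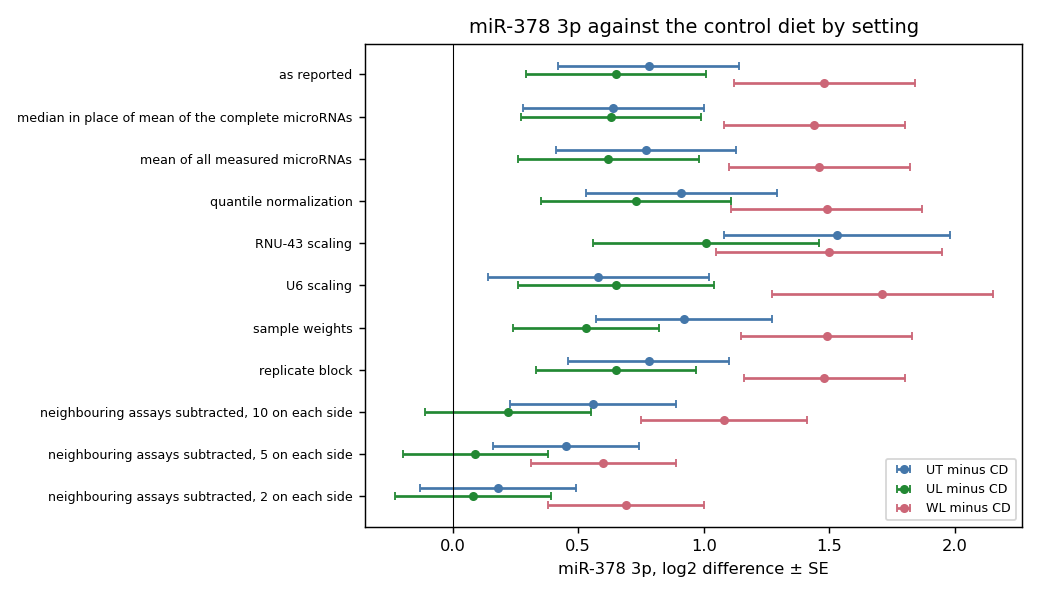
Log2 difference ± SE (limma) of the 3p arm of miR-378 in UT, UL and WL against CD under 11 settings. Scaling leaves WL minus CD between 1.44 and 1.71, and subtraction of neighbouring assays gives 0.60 to 1.08.

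The reference RNA used for scaling also bears on UT. RNU-43, a small nucleolar RNA, stood lower in UT (6.37 to 6.96) than in CD (7.13 to 7.73), and scaling to it moved the median log2 difference of all microRNAs in UT minus CD to 0.73, against -0.01 as reported, and in UL minus CD to 0.30, against -0.07. The 3p arm then had 1.53 in UT minus CD (SE 0.45, limma adjusted p = 0.1), 1.01 in UL minus CD and 1.50 in WL minus CD, and WL minus UT was -0.03. Scaled to U6, a small nuclear RNA without a value in UT 1 and WL 3, the 3p arm had 0.58 in UT minus CD, 0.65 in UL minus CD and 1.71 in WL minus CD, and 5 of 7 high-fat pools lay above every CD pool.

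The 5p arm was most like miR-761 (r = 0.84), miR-19b-3p (r = 0.84), miR-326-3p (r = 0.82), miR-328-3p (r = 0.77) and miR-546 (r = 0.76). The closest of these in accession order, miR-546, stands 42 places away. The nearest neighbours of the 5p arm had r of 0.30 (miR-377, 1 place before) and 0.51 (miR-379, 1 place after). MiR-20a-5p and let-7i-3p were least alike, each with r = -0.80.

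In the authors' deposited table of fold changes, the 3p arm is listed at 0.647 for UT, 0.618 for UL and 0.716 for WL, and the 5p arm at 1.06, 0.985 and 1.06. The ratios behind these folds grow with later cycles, so a fold under 1 stands for an earlier Ct than in CD. In 506 of 506 assays, however, the values listed for UL are those of pools UT 2, UT 3 and UL 1 averaged and divided by the CD mean, and the values listed for WL are those of UT 3, UL 1 and UL 2. Taken from each group's own pools, the same ratio for the 3p arm is 0.647 in UT, 0.695 in UL and 0.379 in WL, and for the 5p arm 1.06, 0.94 and 0.941. The deposited WL value of the 3p arm therefore lies closer to 1 than the ratio of the WL pools themselves, and that of the 5p arm lies on the other side of 1.

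Other microRNAs encoded in host genes, not all of them genes of metabolism or of the muscle contractile apparatus, were set beside miR-378. Of the 15 assays measured for miR-33 (Srebf2), miR-103 and miR-107 (the Pank genes), miR-26 (the Ctdsp genes), miR-335 (Mest), miR-483 (Igf2), miR-499 (Myh7b) and miR-208a (Myh6), 0 passed in UT minus CD, UL minus CD or UL minus UT by limma (lowest adjusted p = 0.52, 0.995 and 0.662). Over all 504 microRNAs 1.39%, 0.595% and 0% passed in these comparisons, so a count of 0 in this list, or in any of the shorter or similar lists below, lies near the background and is no result about its members. Their median log2 difference was 0.04 in UT minus CD, with 8 of 15 above 0, and 0.29 in UL minus CD, with 10 of 15 above 0. The medians over all microRNAs were -0.01 and -0.07. In WL minus CD the median was 0.13, against -0.06 over all microRNAs, and miR-483 had the highest value, 1.19.

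MiR-26a-5p, which in human fat cells promotes a brown-like state, had log2 differences of -0.02 in UT, 0.02 in UL and -0.10 in WL against CD, and miR-26b-5p 0.37 in each. The values of miR-26b-5p rest on CD 3 and were -0.06 in UT, -0.07 in UL and -0.07 in WL without it. MiR-103-3p, a regulator of insulin sensitivity in fat, had -0.72 (limma adjusted p = 0.52) in UT, -0.11 in UL and -0.02 in WL, and miR-107-3p -0.27, 1.21 (limma adjusted p = 0.995) and 0.26. The WL value of miR-107-3p was 1.23 without WL 3 and -0.44 without WL 2. MiR-33-5p, which represses cholesterol export, had 0.19, 0.29 and -0.46 in UT, UL and WL, the last being 0.40 without WL 3, and miR-335 -0.92, -0.58 and 0.44. MiR-499-5p, of muscle, had -0.09, -0.11 and 0.36, and miR-208a-3p, of heart, -0.52, -0.30 and -0.12. The other strands of miR-103, miR-107, miR-26a and miR-208a lay between -0.47 and 0.59 against CD, the lowest being miR-208a-5p in WL, which had a value in 2 of the 3 WL pools.

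MicroRNAs that promote thermogenic fat, in which PGC-1 coactivators act, had 0 calls among 16 assays, and those that restrain it 0 among 17, in UT minus CD, UL minus CD and UL minus UT (limma, lowest adjusted p = 0.504 over both lists), where 1.39%, 0.595% and 0% of all microRNAs passed. The medians of the promoting list were -0.23 in UT, -0.06 in UL and 0 in WL against CD, and those of the restraining list -0.04, -0.13 and -0.13. MiR-30c-5p, the promoting member with the highest level, had -0.63 in UT (limma adjusted p = 0.582), -0.11 in UL and 0.01 in WL. It was followed by miR-365-2-5p at 0.53, -0.29 and -1.02 (-0.38 in WL without WL 3), miR-196a-5p at -0.65, -0.06 and 0.12, and miR-30b-5p at -0.44, -0.08 and 0.37. MiR-365-3p, on the same list at a lower level, had -0.41 in UT, -0.03 in UL and -0.39 in WL against CD. Of the restraining members, miR-125b-5p had -0.70, 0.18 and 0.18, miR-199a-3p -0.50, -0.20 and -0.69, miR-93-5p -0.74, 0.09 and 0.47, and miR-27a-3p -0.51, 0.06 and 0.29. Some of the smaller values in both lists changed sign with single pools left out. For example, miR-125b-5p in UL was -0.18 without UL 1. In WL, miR-27a-3p was -0.09 and miR-196a-5p -0.28 without WL 2.

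MiR-378 is also abundant in striated muscle, so markers of muscle and of other cells of the fat pad were set beside the 3p values. The mean level of the 7 striated muscle assays complete in all pools, of 10 measured, was -1.65 to -0.70 in UT, -1.21 to -0.96 in UL and -1.27 to -0.95 in WL, against -1 to -0.97 in CD. Of the 10 muscle assays 0 passed in UT minus CD, UL minus CD or UL minus UT (limma), beside 1.39%, 0.595% and 0% of all microRNAs, with medians of -0.06 in UT, -0.12 in UL and -0.22 in WL against CD. MiR-499-5p is given above, and miR-133a-3p had 0.08, 0.11 and -0.05, miR-133b -0.22, -0.40 and -0.30, and miR-206-5p, measured in 1 of 3 UT pools, -0.22, -0.14 and -0.32 (0.32 in WL without WL 1). Leukocyte markers (7 assays) had means of 0.47 to 1.06 in UT, 0.83 to 1.41 in UL and 1.16 to 2.01 in WL, against 0.86 to 1.45 in CD, and endothelial miR-126a (2 arms) 6.90 to 7.54, 6.97 to 7.39 and 6.95 to 7.64, against 6.74 to 7.64. Erythroid miR-451a had 5.06 to 5.98 in UT, 5.63 to 6.22 in UL and 4.66 to 5.87 in WL, against 4.90 to 6.47 in CD. The 7 epithelial assays, led by the miR-200 family, had -0.81 to 1.12 in UT, 1.14 to 2.53 in UL and 0.80 to 3.11 in WL, against 0.52 to 3.00 in CD. The part of these cell types in the 3p values was not tested.

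The leukocyte, endothelial, erythroid and epithelial lists held 0 calls in UT minus CD, UL minus CD or UL minus UT (limma, lowest adjusted p = 0.0766, of miR-126a-5p in UT), where 1.39%, 0.595% and 0% of all microRNAs passed. Leukocyte medians were -0.68 in UT, -0.21 in UL and 0.16 in WL against CD, with miR-150-5p at -0.81, -0.33 and 0.16, miR-142-3p at -1.01, -0.22 and 0.55, miR-146a-5p at 0.76, 0.49 and 1.93, and miR-223-3p at -0.68, -0.21 and 0.09. The WL values of miR-146a-5p and miR-142-3p rest on WL 3 and were 0.78 and -0.02 without it, and without CD 3 miR-146a-5p had 0.09 in UT and -0.18 in UL. The endothelial medians were 0.09, 0.02 and 0, and the 2 arms of miR-126a had opposite signs, -1.19, -0.33 and -0.41 for miR-126a-3p and 1.36, 0.38 and 0.40 for miR-126a-5p. Erythroid miR-451a had -0.25, 0.11 and -0.53. The epithelial medians were -2.29, -0.14 and 0.43, with miR-200c-3p at -2.44, -0.09 and 0.44, miR-205-5p at -2.80, -0.12 and 0.46, miR-141-3p at -3, -0.27 and -0.14, and miR-200b-3p at -2.03, -0.17 and 0.46. With single pools left out, the WL values of these 4 lay between -1.01 (miR-141-3p without CD 2) and 1.19 (miR-200c-3p without WL 1), so their direction in WL depends on single pools.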

How the data were processed

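Per the labels' protocols, each extraction took about 22 mg of tissue and used the miRNeasy kit. The PCR platform, the threshold rule and the assay layout are not stated in the sources used here. The authors deposited Ct values before normalization (per the file headers), which were used here, ratios described as 2 to the power of minus delta Ct (per the file headers), and fold changes as ratios of group means. Tested on the values, the difference of Ct and log2 deposited ratio was 1 constant per pool (24.74 to 25.46, within 0.0053), so the ratios run opposite to the header. Of 507 rows 1 repeated another and was dropped. Groups were compared with limma 3.58.1 (R 4.3.3, lmFit, eBayes, two-sided, 4 groups in 1 model), tried on simulated data. The simulated assays were drawn independently of one another, whereas neighbouring assays here were correlated, so the trial does not cover that feature. The arm difference was tested by exact permutation. The 12 pools limit the precision: the median SE over all microRNAs was 0.43 or 0.44. The members, the lists and the tests were chosen with earlier results of these data known. Named were both arms, the 5 assays most and the 2 least correlated with each, all measured metabolic-host microRNAs and, for the other 7 of the 8 lists, the 4 members with the highest level. Same-numbered pools were not treated as paired (r of deviations over the complete microRNAs -0.27 to 0.26). Pool 1 nevertheless had the highest 3p level and the smallest distance between the arms in each group. The permutation test of the arm difference took no account of the replicate number. Alternatives covered scaling, filter, neighbouring assays, weights, block and left-out pools. Genes of the mTOR network were not analysed here.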

Additional observations from a re-analysis of the deposited data

How the results depend on the processing

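Over 25 other settings, 0 arms passed the threshold in UT minus CD, UL minus CD or UL minus UT, and the 3p arm stayed above 0 against CD in UT (0.18 to 1.53), UL (0.08 to 1.01) and WL (0.60 to 1.71). With the replicate number as a block the 3p arm had 0.78 in UT minus CD (limma adjusted p = 0.373), 0.65 in UL minus CD and 1.48 in WL minus CD, and the block changed no call of either arm. For the 3p arm, WL minus CD was 0.60, 0.69 and 1.08 with 5, 2 and 10 neighbouring assays subtracted on each side, WL minus UT was -0.03 with RNU-43, 1.13 with U6 and 0.15 with 5 neighbours subtracted, and UL minus UT was 0.07 with U6. For the 5p arm, UT minus CD lay above 0 with RNU-43 (0.74), U6 (0.04), quantile normalization (0.04), sample weights (0.06) and 5, 2 and 10 neighbours subtracted (0.28, 0.46 and 0.23), while UL minus UT was -0.32 with RNU-43 and -0.03 and -0.23 with 5 and 2 neighbours. WL minus UT of the 5p arm was -0.60 with RNU-43 and -0.79 with 2 neighbours, and WL minus UL -0.56 with 2 neighbours. The arm difference with 5, 2 and 10 neighbours subtracted was -0.16, -0.15 and -0.05 in UL minus CD. With 2 neighbours it was -0.28 in UT minus CD and 0.13 in UL minus UT, and with 5 it was 0.59 in WL minus CD. The cause of these changes was not tested.

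With single pools left out, the 3p arm ranged from 0.62 to 1.04 in UT minus CD, 0.31 to 0.87 in UL minus CD, -0.48 to 0.08 in UL minus UT, 1.38 to 1.60 in WL minus CD, 0.44 to 0.86 in WL minus UT and 0.61 to 1.17 in WL minus UL. The lowest of these in UL minus CD, 0.31, was without UL 1. The 5p arm ranged from -0.36 to 0.30 in UT minus CD, -0.30 to 0.36 in UL minus CD and -0.16 to 0.36 in UL minus UT. The arm difference ranged from 0.50 to 1.22 in UT minus CD, 0.27 to 1.02 in UL minus CD, -0.52 to 0.05 in UL minus UT and 1.07 to 1.79 in WL minus CD. The count of all microRNAs called was 7 in UT minus CD, 3 in UL minus CD, 0 in UL minus UT and 3 in WL minus CD, and with single pools left out 1 to 10, 2 to 6, 0 to 8 and 2 to 6 in that order. The count in UT minus CD was 1 without UT 3 and 2 without UT 1 or CD 2, those in UL minus CD and WL minus CD were each 6 without CD 3, and that in UL minus UT was 8 without WL 3. UT minus CD had 12 calls with RNU-43 or sample weights, 4 with 5 neighbours subtracted or the block and 1 among complete microRNAs. UL minus CD had 5 with RNU-43, 6 with sample weights, 1 with 10 neighbours and 0 among complete microRNAs. UL minus UT had 4 with RNU-43, 5 with U6 or with only those groups fitted, 7 with sample weights and 1 with the block. WL minus CD had 6 with sample weights, 1 with only those groups fitted and 0 among complete microRNAs. The values of listed microRNAs with single pools left out carry no test and were chosen after seeing the data.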
